A study of Mus musculus with 6 samples.

Results

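The genes for the subunits of RNA polymerases I, II and III were examined for peaks of E2F1, a transcription factor of the G1/S transition, in chromatin immunoprecipitation sequencing (ChIP-seq) lists from the mouse fibroblast cell line NIH/3T3. The members are the 28 of 21900 protein-coding genes in the RefSeq table of assembly GRCm38.p6 whose symbols begin with Polr1, Polr2 or Polr3 followed by a letter, namely 5 for polymerase I (Pol I), 13 for Pol II and 10 for Pol III. They were chosen by symbol, not by any measured value, though with earlier results of these data known. A peak was assigned to a gene when it lay inside the gene or within 1000 bp of it. In the E2F1 group the cells were Dox-inducible E2F1 cells, which produce E2F1 when doxycycline is given, and in the control group Dox-inducible EV cells, read here as carrying the empty vector. All cells were starved in 0.25% serum for 48 hours and collected after 12 hours of doxycycline. The treatment protocol gives 500 ng/ml, while the peak names carry another figure without a unit, so the concentration is uncertain. Each group has 2 libraries with their own peak lists, and 2 input libraries of EV cells were not used here. The antibody, the promoter driving the construct, whether each line is a clone, and whether replicates came from separate cultures are not given in the sources used here. Peak lists hold no expression values, so neither the induction of E2F1 nor the cell type could be checked.

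RNA polymerase I transcribes the ribosomal RNA precursor, polymerase II the messenger RNAs, and polymerase III transfer RNAs and other short RNAs. Each enzyme is built around a pair of large subunits that form the active site, with a set of smaller subunits, some of which are common to all of the enzymes. Resting cells that return to the cycle raise the output of ribosomal and transfer RNA, and E2F factors are best known for genes of DNA replication and the cell cycle.

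The E2F1 lists held 7836 and 8027 peaks in replicates 1 and 2, against 70 and 358 in the EV lists. Fold enrichment is the authors' ratio of the read pileup at the summit to the local background, and its median over all peaks was 9.19 in E2F1 replicate 1 and 11.3 in replicate 2. Background was solved from fold and p-value, and its most frequent value among the listed peaks was used as the measure of depth. This was 1.85 and 1.86 reads in E2F1 replicates 1 and 2, 2.20 in EV replicate 1 and 1.18 in EV replicate 2. It held for 5.95% and 18.3% of the peaks in E2F1 replicates 1 and 2. In EV replicates 1 and 2 it held for 5.71% and 5.34%, so the measure is rough. Every listed peak had a −log10 p above 10, so a gene without a listed peak may still hold a weaker signal.

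Most of the subunit genes carried an E2F1 peak. In E2F1 replicate 1, 17 of the 28 genes had a peak and in replicate 2, 21 did, a mean of 19 ± 2.83 genes (SD, n = 2). In the EV lists the count was 0 of 28 in both replicates. The difference of 19 genes gave an exact two-sided permutation p of 0.333, the smallest that 2 against 2 libraries allow. Once the groups did not overlap, this p-value was fixed by the number of libraries. It does not measure the spread between replicates, which are separate libraries and may be technical. Over all protein-coding genes 36.9% and 38.3% had a peak in E2F1 replicates 1 and 2, while the EV lists gave 0.0365% (replicate 1) and 0.406% (replicate 2). At EV shares of that size, a count of 0 among 28 genes is no result about these genes. The EV peak nearest to any subunit gene lay 124554 bp from Polr3a, in replicate 2.

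The genes listed in E2F1 replicate 1 were all listed in replicate 2 as well. These 17 genes (60.7%, Wilson 95% interval 42.4 to 76.4) compare with 34.4% of all protein-coding genes with a peak in both lists. The interval covers counting error over genes only, and no test of the list was made. By polymerase, 3 of 5 Pol I genes (60%, 23.1 to 88.2), 9 of 13 Pol II genes (69.2%, 42.4 to 87.3) and 5 of 10 Pol III genes (50%, 23.7 to 76.3) had a peak in both lists. The intervals of the polymerases overlap widely, and their order was not tested. A further 4 genes, Polr2h, Polr3b, Polr3d and Polr3f, were listed in replicate 2 only, and 7 genes, Polr1b, Polr1e, Polr2d, Polr2g, Polr2k, Polr3a and Polr3k, in neither list. For Pol III this moved the count from 5 of 10 genes (50%) in replicate 1 to 8 of 10 (80%) in replicate 2, so the Pol III share without E2F1 replicate 1 is 80%.

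**Figure D1:**
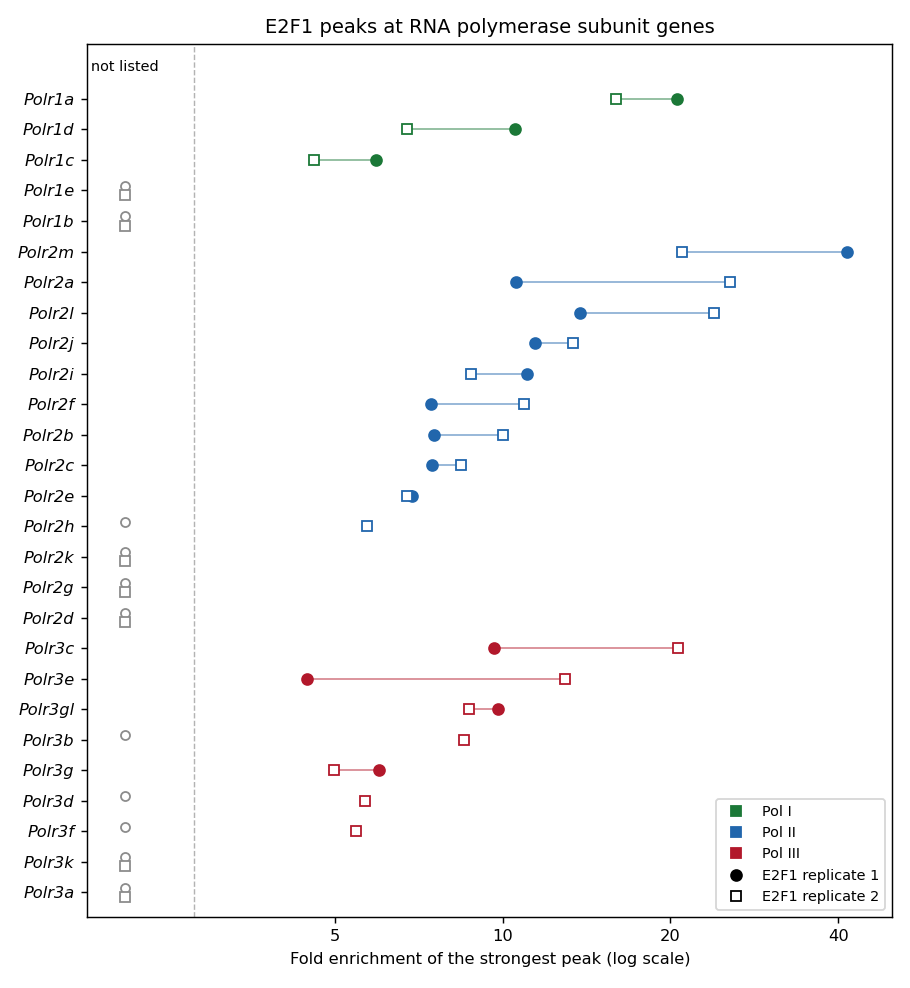
Fold enrichment (log axis) of the strongest peak at the subunit genes, 1 of which is not drawn, in E2F1 replicate 1 (filled circles) and replicate 2 (open squares), with genes grouped by polymerase and lines joining the values of a gene. Symbols left of the dashed line mark lists without a peak, and Polr2m stands at the right with folds of 41.4 and 21.0.

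By fold, the peaks themselves were near the middle of these lists, and their medians were below those of other genes with peaks. Each gene was given its strongest peak by fold, and the fold was ranked among all peaks of its list. The median percentile over the 17 genes was 53.6 in replicate 1 and 48.0 in replicate 2, beside 57.1 and 57.6 for the 7520 other protein-coding genes with a peak in both lists. The strongest peak was in the upper part of both lists (percentile 50 or above) at 6 of the 17 genes (35.3%), beside 46.4% of the other genes. When only peaks with a score of at least 312 were counted, the median of all E2F1 peaks, 5 of 28 subunit genes (17.9%, Wilson 95% interval 7.88 to 35.6) had a peak in both lists, and the share over all protein-coding genes was 16.9%. Among genes with a peak in both lists, the limit was met by 5 of 17 subunit genes, beside 3687 of the 7520 other genes. With 5 genes the interval is wide, and no difference between these shares was tested. The 5 genes were Polr1a, Polr2j, Polr2l, Polr2m and Polr3c, at least 1 of each polymerase.

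Among the Pol I genes, Polr1a, which encodes the largest, catalytic subunit, had the strongest peak. The gene lies on chromosome 6 from 71909053 to 71979435, and the peak spanned 71908357 to 71909860 in replicate 1 with a fold of 20.6, rank 824 of 7836. In replicate 2 the fold was 16.0, rank 2639 of 8027, a mean of 18.3 ± 3.26 (SD, n = 2). Polr1b, the gene of the second large subunit, had no peak within 1000 bp, and the nearest E2F1 peaks lay 34528 bp away in replicate 1 and 34712 bp away in replicate 2. Polr1d and Polr1c encode the small subunits that Pol I shares with Pol III. Polr1d had folds of 10.5 and 6.73, and Polr1c folds of 5.92 and 4.59, the latter ranking 7832 of 8027. All 3 listed Pol I genes had the higher fold in replicate 1. Polr1e, which encodes a subunit specific to Pol I, was without a peak, the nearest being 6157 bp and 6055 bp away.

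Among the Pol II genes, Polr2m was highest in replicate 1 and Polr2a in replicate 2. Polr2m encodes Gdown1, a protein that associates with Pol II and restrains initiation, and not a core subunit. Its gene lies on chromosome 9 from 71478437 to 71485983. The fold was 41.4 in replicate 1, rank 74 of 7836, from a pileup of 117 reads over a background of 1.85. In replicate 2 the fold was 21.0, rank 1677 of 8027, from 93 reads over 3.48. The mean was 31.2 ± 14.5 (SD, n = 2), the highest of the 28 genes.

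Polr2a encodes the largest subunit of Pol II, whose C-terminal repeats are phosphorylated during transcription. It lies on chromosome 11 from 69733997 to 69758633. The fold was 10.6 in replicate 1 and 25.6 in replicate 2, from pileups of 30 and 81 reads, so that the gene moved from rank 3170 to rank 1159. The lists thus place this peak near the middle and in the upper part, respectively. Polr2b, the gene of the other large subunit, was the only member with more than 1 peak in a list. In replicate 1 its peaks had folds of 7.54 and 6.48 with summits 247 bp inside and 560 bp outside the gene, and in replicate 2 a single peak of fold 10.0 covered part of both.

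The Pol II subunits that are common to all 3 enzymes are Polr2e, Polr2f, Polr2h, Polr2k and Polr2l. A peak in both lists was found at 3 of these 5 genes (60%, Wilson interval 23.1 to 88.2). The interval includes the 34.4% of all protein-coding genes, and the difference was not tested. Polr2l had the highest folds of these genes, 13.8 and 24.0, with peaks 2472 bp and 2245 bp wide, the widest at any member. Its summit in replicate 2 lay 1559 bp from the nearest boundary of the gene, so the gene was counted there by the edge of the peak. Polr2f had folds of 7.44 and 10.9, and Polr2e folds of 6.88 and 6.73. Polr2h was listed in replicate 2 only, with a fold of 5.71 (rank 7218), while the nearest peak of replicate 1 was 1380 bp from the gene, just outside the distance used. At Polr2k the nearest peaks were 105316 bp and 105367 bp away.

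Of the remaining Pol II genes, Polr2c and Polr2j, whose products pair in the assembly platform, had folds of 7.48 and 8.42 and of 11.4 and 13.4. Polr2i, which encodes a small subunit with a part in the fidelity of transcription, had folds of 11.1 and 8.79. The genes of the stalk, Polr2d and Polr2g, were both unlisted. The nearest peaks lay 29329 bp and 7052 bp from Polr2d and 6816 bp and 17835 bp from Polr2g. Both members of the pair that forms the stalk were thus without a peak, while Polr2c, Polr2i and Polr2j all had one in both lists. The share over all protein-coding genes was 34.4%. With so few genes the contrast is no result about subunit roles, and it was not tested.

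The Pol III genes with a peak in both lists included Polr3c, Polr3e, Polr3g and Polr3gl. Polr3c, a subunit of the trimer that takes part in promoter opening and initiation, had folds of 9.66 and 20.7, a mean of 15.2 ± 7.78 (SD, n = 2). Polr3g and Polr3gl encode alternative forms of another subunit of that trimer. Polr3gl had folds of 9.83 and 8.72, and Polr3g folds of 6.01 and 4.98, which left Polr3g among the lowest peaks of replicate 2 at rank 7677 of 8027. The Polr3g peak of replicate 1 ended outside the gene, 104 bp from its boundary. Polr3f, the remaining subunit of the trimer, was listed in replicate 2 only with a fold of 5.47.

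Polr3e, which pairs with the product of Polr3d, had the lowest fold of replicate 1 at the members, 4.46, and a fold of 12.9 in replicate 2. Polr3d was listed in replicate 2 only, with a fold of 5.66. Both large subunits of Pol III were without a peak in replicate 1. Polr3b had a fold of 8.52 in replicate 2, rank 5291, and Polr3a had none, with the nearest peaks 3660 bp and 202719 bp away. Polr3k, a small subunit needed for RNA cleavage and termination, was unlisted as well. Over the 3 enzymes, 3 of the 6 genes of the large catalytic subunits had a peak in both lists, namely Polr1a, Polr2a and Polr2b. Their share was 50% (Wilson interval 18.8 to 81.2), beside 34.4% of all protein-coding genes. With so few genes this is no result about subunit roles, and the difference was not tested.

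The replicates differed in fold by more than 1.5 times at 7 of the 17 genes. The ratio of replicate 2 to replicate 1 ran from 0.506 at Polr2m to 2.90 at Polr3e, with a median of 1.12 and the higher fold in replicate 2 at 9 genes. The other protein-coding genes with peaks in both lists had a median ratio of 1.26, with 70.9% higher in replicate 2. The pileups differed by more than 1.5 times at 3 genes and the backgrounds at 7. The counts beyond 1.5 times are not given here for the other protein-coding genes, so they are no result about the subunit genes in particular. At Polr3e the pileup was 31 reads in replicate 1 and 36 in replicate 2, while the background was 6.17 and 1.86. At Polr3c the pileups were 72 and 62 reads, and the backgrounds 6.56 and 2.05. At Polr2a the background was similar, 1.93 and 2.21, and the pileup rose from 30 to 81. Whether the background accounts for the differences was not tested. The order of single subunit genes by fold therefore differed between the libraries.

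**Figure D2:**
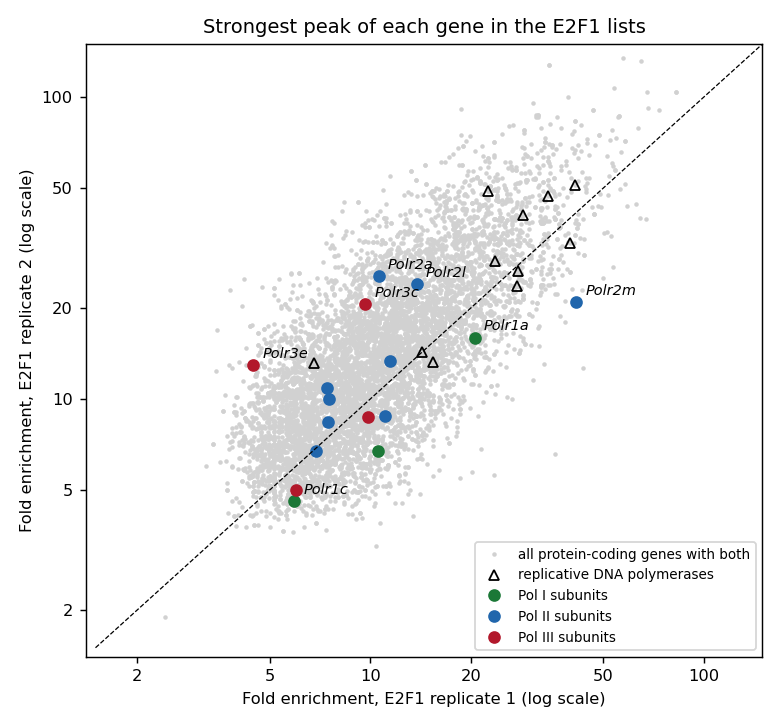
Fold enrichment of the strongest peak of each gene in E2F1 replicate 1 (x) and replicate 2 (y), both on log axes, for all protein-coding genes with a peak in both lists (grey), subunit genes (coloured by polymerase, 1 not drawn) and replicative DNA polymerase genes (triangles); the dashed line marks equal folds. Most subunit genes sit in the lower and middle part of the cloud, Polr2m to the right of the line at 41.4 and 21.0, and Polr3e to the left at 4.46 and 12.9.

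The peaks sat at the ends of the genes. Of the 39 peaks at members, 38 had their summit within 1000 bp of a gene boundary and 34 within 300 bp, the exception beyond 1000 bp being the replicate 2 peak of Polr2l. Peaks outside a gene were counted only within 1000 bp of it, so part of the count of 38 follows from that rule. The same counts over other protein-coding genes are not given here, so these are no result about the subunit genes in particular. A start site with strand was found for 22 of the 28 genes in the RefSeq promoter table. Polr2d, Polr2g, Polr2k, Polr3a and Polr3d were among those not matched. For the strongest peaks of genes with both lists, the summit was a median of 195.5 bp from the nearest start site and within 250 bp in 24 of 32 cases (75%), beside 171 bp and 68.9% for the other protein-coding genes. The summits of the 2 replicates were a median of 79 bp apart, beside 57 bp for the other genes. At Polr1d the summits lay at positions -999 and -908 relative to the start site of that table, but 368 bp and 277 bp from the outer boundary of the gene. At Polr2m they lay 247 bp and 256 bp downstream of its upstream start site.

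**Figure D3:**
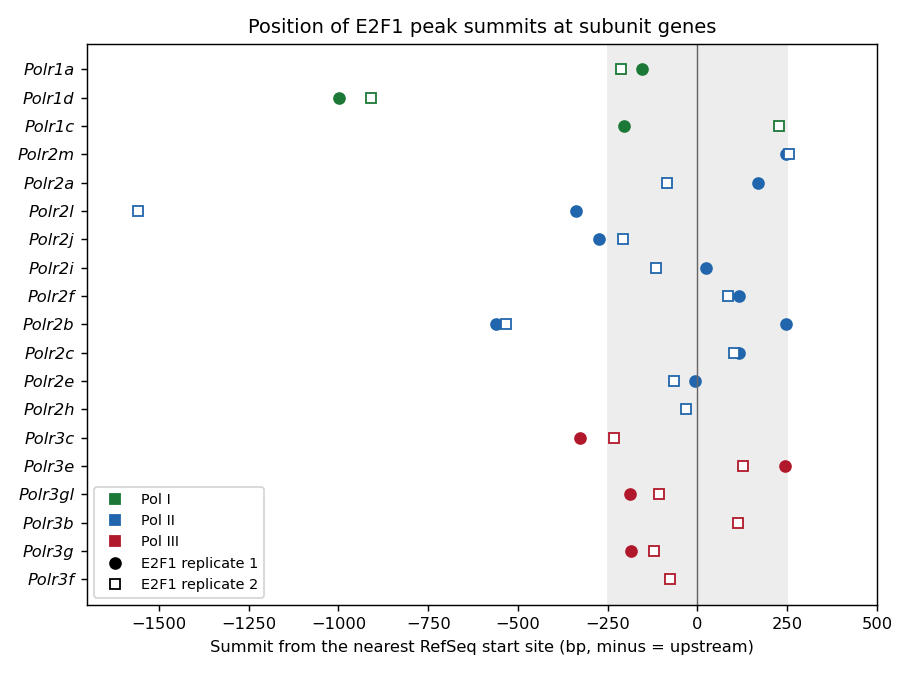
Distance in bp of each E2F1 peak summit from the nearest RefSeq start site of the gene, negative upstream, in replicate 1 (filled circles) and replicate 2 (open squares); the grey band spans 250 bp to either side. Most summits fall in or near the band, with Polr1d (-999 and -908) and the replicate 2 peak of Polr2l (-1559) far upstream.

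Many of these peaks cannot be given to the subunit gene alone. At 11 of the 17 genes at least 1 peak also came within 1000 bp of a boundary of another protein-coding gene. At 6 genes, Polr1a, Polr1c, Polr1d, Polr2b, Polr2l and Polr3c, a summit was nearer to the other gene than to the subunit gene. The Polr1a summits lay 154 bp and 212 bp from Polr1a and 126 bp and 68 bp from Ptcd3. For Polr3c they lay 269 bp and 172 bp from the gene, and 170 bp and 73 bp from Rnf115. All 3 listed Pol I genes were among these 6 genes. The same counts over all protein-coding genes with a peak in both lists are not given here. The counts of 11 and 6 genes are therefore no result about the subunit genes in particular. The 6 genes with peaks near no boundary of another protein-coding gene included Polr2c, Polr2e, Polr2j, Polr2m and Polr3e. Polr2m, with the highest mean fold, thus had no such boundary within 1000 bp of its peaks. Non-coding genes were not examined.

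The promoters of the members were CpG-rich. Over the 24 member promoters in the RefSeq table (GRCm38.p6), 250 bp before to 50 bp after a start site, the median ratio of observed to expected CpG was 0.855, beside 0.567 over all 21263 promoters of protein-coding genes. It was 0.818 over promoters of all genes with a peak in both lists and 0.298 over those of genes with a peak in neither. The part of CpG content in the share of subunit genes with a peak was not tested. Letters of the E2F consensus (TTTCCCGC, TTTGGCGC, TTTCGCGC or TTTGCCGC, either strand) were found in 3 of 24 member promoters (12.5%), all of Pol II genes, beside 2.85% of all promoters and 5.02% of promoters of genes with a peak in both lists. The ETS letters CCGGAAG were found in 7 of 24 (29.2%), beside 11.6% of all promoters and 18.1% of those of genes with a peak in both lists. CACGTG, the E-box bound by Myc, was found in 4 (16.7%), beside 7.84% and 10.3% in the same order. Of these 4, 3 were among the 7 Pol III promoters. CCAAT was in 7 (29.2%, beside 38.2% and 36.8%), TATAAA in 2 (8.33%, beside 12.6% and 6.00%) and the YY1 letters AAGATGGCG in 0 (beside 1.83% and 3.18%). None of the motifs searched contains another, and at the members no E2F match overlapped a match of another motif. A match describes letters and not a bound site, and the counts of 3 to 7 promoters are small.

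The 3 stretches below hold the E2F letters, in capitals, within 30 bases of the sense strand, and show where these letters lie relative to the summits. That of Polr2a (GRCm38.p6, chr11:69758683-69758712, minus strand) begins its match 68 bases before the start site, 21 bp from the summit of replicate 2 and 232 bp from that of replicate 1. That of Polr2c (chr8:94857375-94857404, plus strand) begins 64 bases before the start site, 175 bp and 161 bp from the summits. That of Polr2j (chr5:136116505-136116534, plus strand) begins 175 bases before the start site, 103 bp and 36 bp from the summits.
Polr2a: cgcaagggaggGCGGGAAAggaaggggcgg
Polr2c: gaccaatgcatTTTGGCGCcggtgtggtta
Polr2j: cgcgggagcacGCGCCAAAacactcagcat

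The match of Polr2c is the only one in the TTTGGCGC direction on the sense strand, and those of Polr2a and Polr2j read GCGGGAAA and GCGCCAAA, the complementary direction. Whole upstream regions of 250 bases are shown for the member with the highest mean fold of each polymerase and for Polr2a, with any of the letters searched in capitals. They are Polr1a (chr6:71908803-71909052, plus strand), Polr2m (chr9:71485984-71486233, minus strand), Polr3c (chr3:96727440-96727689, minus strand) and Polr2a (chr11:69758634-69758883, minus strand).
Polr1a: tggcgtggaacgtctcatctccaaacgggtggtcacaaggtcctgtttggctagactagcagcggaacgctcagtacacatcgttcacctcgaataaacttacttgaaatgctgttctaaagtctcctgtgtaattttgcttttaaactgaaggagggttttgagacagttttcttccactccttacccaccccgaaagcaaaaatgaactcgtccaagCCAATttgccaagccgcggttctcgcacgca
Polr2m: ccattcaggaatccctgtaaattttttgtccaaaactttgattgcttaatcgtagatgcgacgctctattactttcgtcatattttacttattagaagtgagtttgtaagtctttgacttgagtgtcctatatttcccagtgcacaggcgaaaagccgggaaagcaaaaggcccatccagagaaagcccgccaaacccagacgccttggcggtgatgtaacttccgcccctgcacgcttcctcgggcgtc
Polr3c: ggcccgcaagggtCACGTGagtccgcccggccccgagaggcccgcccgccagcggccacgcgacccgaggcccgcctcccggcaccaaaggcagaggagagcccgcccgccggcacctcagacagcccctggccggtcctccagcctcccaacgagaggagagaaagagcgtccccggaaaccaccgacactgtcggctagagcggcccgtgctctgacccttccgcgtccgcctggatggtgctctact
Polr2a: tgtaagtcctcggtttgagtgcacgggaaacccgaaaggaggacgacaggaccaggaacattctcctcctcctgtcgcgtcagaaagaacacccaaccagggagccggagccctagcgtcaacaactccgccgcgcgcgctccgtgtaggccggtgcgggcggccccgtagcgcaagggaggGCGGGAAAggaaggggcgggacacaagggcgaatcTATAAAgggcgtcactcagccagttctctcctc

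In the Polr1a region only CCAAT was found, and in that of Polr2m none of the letters. The Polr2m summits lay downstream of this region. In the Polr3c region CACGTG lay 94 bp from the summit of replicate 1 and 3 bp from that of replicate 2. At Polr3gl, CACGTG lay 4 bp and 83 bp from the summits, and at Polr3e 237 bp and 118 bp. At Polr2h it lay 58 bp from the summit of replicate 2, the one list with a peak there. In the Polr2a region TATAAA lay 33 bases before the start site, downstream of the E2F letters.

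Other lists of the transcription machinery had a peak in both E2F1 lists at 56.2% to 70.8% of their genes, beside 34.4% of all protein-coding genes. Subunits with other symbols in this annotation, Twistnb, Cd3eap and Znrd1 for Pol I, Crcp for Pol III and Polrmt for the mitochondrial enzyme, had a peak in both lists at 3 of 5 genes, Cd3eap being highest with folds of 9.06 and 11.0. Of the Pol I factors, 7 of 10 had one (70%), with Nolc1, a nucleolar protein, highest at 17.5 and 21.2. The Pol III factors had 9 of 16 (56.2%), led by Brf1, a subunit of the initiation factor TFIIIB, at 12.7 and 29.3. The general Pol II factors had 18 of 31 (58.1%), led by Taf6, a subunit of TFIID, at 36.7 and 37.0, and the pausing and elongation factors 17 of 24 (70.8%), led by Ssrp1, a subunit of the histone chaperone FACT, at 57.9 and 71.7. Factors of polymerase assembly had 7 of 10 (70%), led by Uri1 at 12.8 and 17.9. With scores of at least 312, these counts were 0 of 5, 2 of 10, 5 of 16, 8 of 31, 10 of 24 and 1 of 10, in the same order. The share over all protein-coding genes at that limit was 16.9%, and no difference from it was tested.

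The replicative DNA polymerase genes, which include the catalytic and accessory subunits and the primase, gave higher values than the RNA polymerase genes in the same lists. Of these 12 genes 11 had a peak in both lists (91.7%, Wilson 95% interval 64.6 to 98.5) and 10 (83.3%) with scores of at least 312, against 17 of 28 and 5 of 28 RNA polymerase genes. Their median fold percentile was 95.5 in replicate 1 and 88.5 in replicate 2, and 10 of the 11 were at percentile 50 or above in both lists. Median folds were 27.6 and 28.6, against 9.66 and 10.9 for the RNA polymerase genes. Pole4 was highest with folds of 41.1 and 51.0. E2F letters were found in 6 of 12 of their promoters (50%), against 3 of 24 for the RNA polymerase genes. The 12 promoters belong to 10 of the DNA polymerase genes, and the 24 to 22 of the RNA polymerase genes. The lists were chosen with results of these data known, and the difference was not tested.

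**Figure D4:**
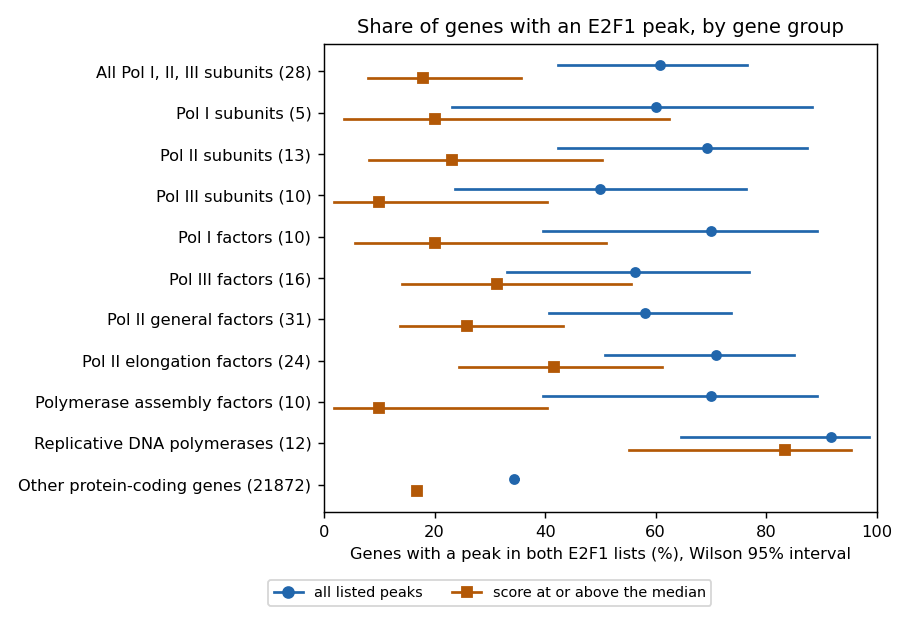
Share of genes with a peak in both E2F1 lists (%, with Wilson 95% intervals and the number of genes in brackets) for all listed peaks (circles) and for peaks with a score at or above the median (squares). The subunit genes fall from 60.7% to 17.9% and other protein-coding genes from 34.4% to 16.9%, while the replicative DNA polymerases go from 91.7% to 83.3%.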

How the data were processed

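ChIP-seq peak lists of 2 E2F1 and 2 EV libraries were used. Bowtie2 and MACS2 are named with the build mm10 in the submitters' processing notes, without versions or settings, and there is 1 list per library. Judged from the values, fold in the deposited lists is the ratio of pileup to local background, the deposited score is 10 times the −log10 q-value rounded down, and the deposited −log10 p of every peak exceeded 10. The deposited summit offset gave summit positions.

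Genes and promoters came from RefSeq tables of GRCm38.p6, the assembly of mm10. Positions count from 1. Pileup and background were solved from fold and p as a Poisson tail with a pseudocount of 1. At least 99.4% of peaks of each list gave a whole pileup within 5% of a step. Python 3.11.15, pandas 2.3.3 and scipy 1.17.1 were used, and the overlap and solving steps were tested on simulated data. Counts of genes per library were set against each other in a two-sided permutation test over all exact splits. Alternatives were other distances, boundaries only, summits, the score limit, union intervals, left-out libraries, the replicate block and other ways of ranking.

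Members, lists and motifs were chosen with earlier results of these data known. Values in full were planned for the 3 highest members of each polymerase and for members with 1 list or several peaks, and by value only the highest gene of each other list. The 30-base stretches and the values of the remaining members were added after the values were seen. The values of 1 member are not reported here, though it is in the counts and medians.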

Additional observations from a re-analysis of the deposited data

How the results depend on the processing

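Of 63 alternatives, 47 kept the value within its spread or within 1.5 times the count, and 16 did not. With scores at or above the median, the difference in subunit genes between E2F1 and EV fell from 19 to 6.5, and the share with a peak in both lists to 17.9% for all subunits, 20% for Pol I, 23.1% for Pol II, 10% for Pol III and 16.9% for all protein-coding genes. Fewer peaks are counted there by construction. From one E2F1 list alone, the share ran from 50% to 80% for Pol III and from 36.9% to 38.3% for all protein-coding genes. The latter was 32.9% at 0 bp, 35.5% at 2500 bp and 30.9% with gene boundaries only, while the share of subunit genes stayed between 57.1% and 64.3% over these. The median fold percentile of subunit peaks, 50.8 over both lists, was 43.6 by score in place of fold, 40.3 over all their peaks, 45.2 at 2500 bp and 45.1 for peaks near no other gene; the cause was not tested.

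The replicate block gave the same difference of 19 genes, for which flipping signs within the pairs gave an exact p of 0.5, the least that 2 pairs allow; 1 count per library cannot show whether the numbers pair the libraries. The p-value limit of the lists, and backgrounds of 1.85 and 1.86 reads in E2F1 replicates 1 and 2, leave weaker sites unseen. The 7 subunit genes unlisted in both may still hold such sites.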
